A study of Rattus rattus with 12 samples.

Results

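Of the 46726 transcripts quantified in rat perigonadal fat, 291 were higher than in untreated fat both at day 3 and at day 14 after injection of ice slurry. Members were chosen by their values. A transcript needed more than 3 assigned reads in all 12 libraries, a mean of at least 5 TPM in its highest group and a place outside the 100 most abundant transcripts of control fat. TPM is a transcript level scaled for transcript length and library depth. These abundance conditions were met by 14560 transcripts. Among them a member had a group mean of TPM + 1 at least 2 times that of control on both days, and its 6 day 3 and day 14 values were all above its 3 control values. The levels in control, day 3 and day 14 tissue therefore chose the members, and their differences from control are given as a description with no test. Only day 14 against day 3 was tested, with its limits given there. Day 1 was used only in the conditions on reads and abundance.

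The fat came from male Sprague-Dawley rats, obtained at 8 weeks of age and 200 g, which received a high fat diet (60 kcal% from fat) from 9 weeks before treatment until sacrifice. The 4 groups of 3 libraries were untreated control fat and, from slurry-treated fat, a group each for day 1, day 3 and day 14 after injection. Slurry is a mixture of ice, saline and glycerol, of which 10 ml was injected into the perigonadal fat of one side through an abdominal incision. Per the methods, control fat was that of the side left untreated. Treated fat was exposed, injected with fluid and cooled, and these cannot be told apart in these groups. The labels do not tie a control library to a treated animal and give no day for control fat. Rats were sacrificed at each time point, so the days come from different rats. Sprague-Dawley is a strain of Rattus norvegicus, whereas the organism in the labels is Rattus rattus. The total of assigned reads was between 20466915 and 28802360 per library. Day 14 library 3 stood apart from its group for the members. Its summed level and median ratio of the members, though not each single member, lay close to those of day 1 library 3. The effect of day 14 library 3 is given with the results.

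Fat cells are more sensitive to cold than the tissue around them. After fat cells die, macrophages enter the tissue and clear lipid and debris, and fibroblasts then lay down collagen and other matrix proteins as the tissue is repaired. Inflammation and repair overlap in time. The deposited tables list transcripts by Ensembl identifier without gene names, and 0 of the identifiers were found among the 32100 genes of the reference table at hand, which is for Rattus rattus. No gene, pathway or cell type is assigned to the transcripts below for this reason, and the tissue label could not be checked against marker genes. In bulk tissue, more cells of a type and more RNA per cell cannot be told apart.

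With each day judged alone, by the same ratio and the same separation from control, 1057 transcripts were raised at day 3 and 830 at day 14, the members included. The 291 members were thus 27.5% of the transcripts raised at day 3 and 35.1% of those raised at day 14. They were 0.623% of all transcripts. Both comparisons share the control libraries, and these shares are a description of the rule.

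The summed level of the members was 6112, 7764 and 6574 TPM in control libraries 1 to 3. At day 1 it was 8875, 11373 and 14670 TPM. At day 3 it was 30201, 22377 and 29408 TPM. At day 14 it was 35954, 27963 and 14732 TPM. The members thus took up 0.68% ± 0.09 of all TPM in control fat, 1.16% ± 0.29 at day 1, 2.73% ± 0.43 at day 3 and 2.62% ± 1.07 at day 14 (SD, n = 3 libraries each). The day 1 libraries all lay above the control libraries. Library 3 of day 14 was close to library 3 of day 1.

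A few transcripts made up much of this sum. The 2 most abundant members held 29.5% of the summed mean level over day 3 and day 14, and the 10 most abundant held 56.3%. In day 3 libraries 1 and 3 the 2 most abundant members held 47.0% and 47.6% of the summed level, against 27.5% in day 3 library 2 and 7.86% in day 14 library 2. Without them the sum was 16021, 16213 and 15414 TPM at day 3, with an SD of 417 TPM next to 4306 TPM with them. Without them it was 26907, 25765 and 13005 TPM at day 14, against 4761, 6703 and 5706 TPM in control fat. At the level of single transcripts, 40 members had a mean above 100 TPM over day 3 and day 14, 160 had between 10 and 100 TPM, and 91 had under 10 TPM. In control fat 150 members were under a mean of 5 TPM and 14 were under 1 TPM, and 9 members had fewer than 10 assigned reads in at least 1 control library.

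**Figure D1:**
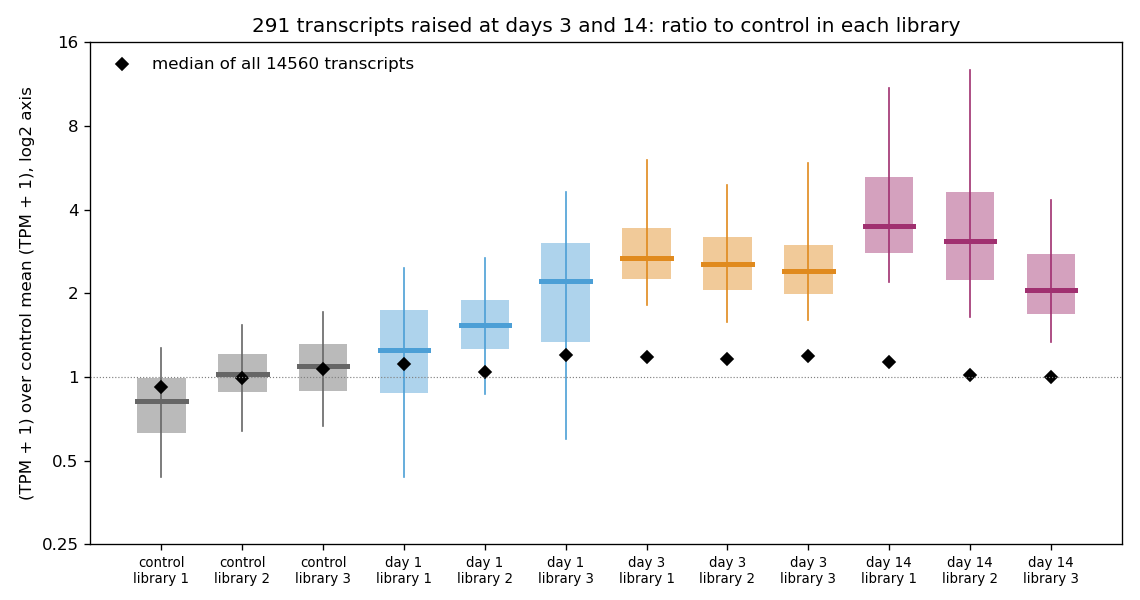
Ratio of TPM + 1 to the control mean for the 291 members in each of the 12 libraries, on a log2 axis. Thick lines are medians, boxes run from the 25th to the 75th percentile, thin lines from the 5th to the 95th, and diamonds are the median of the 14560 transcripts that met the abundance conditions; the day 3 libraries lie close together, day 1 library 3 and day 14 library 3 approach each other, and the diamonds stay between 0.920 and 1.20.

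The typical member was raised by somewhat more at day 14 than at day 3. The ratio of TPM + 1 over control had a median of 2.50 at day 3 (quartiles 2.24 and 3.17, highest 17.3) and of 2.97 at day 14 (quartiles 2.39 and 4.09, highest 20.4). Over all transcripts that met the abundance conditions the median was 1.19 at day 3 and 1.06 at day 14. A ratio of at least 5 was reached by 20 members at day 3 and by 51 at day 14, and by 7 on both days. A ratio of at least 10 was reached by 2 members at day 3, by 12 at day 14 and by 1 on both days. Many members lay close to the limit of the rule. At day 3, 59 members had a ratio between 2 and 2.2, with 2.003 as the lowest inside and 1.998 as the highest outside. At day 14, 36 had a ratio in that range, with 2.005 as the lowest inside and 1.99 as the highest outside. A further 38 transcripts met the ratio on both days but overlapped control at day 3, and 64 did so at day 14.

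The libraries did not contribute equally. Per library, the median ratio over the members was 2.69, 2.55 and 2.41 in day 3 libraries 1 to 3, and 3.50, 3.08 and 2.07 in day 14 libraries 1 to 3. Day 14 library 3 was the lowest of its group in 223 of the 291 members and the highest in 14. Its level lay a median of 0.78 below the mean of the other day 14 libraries on the log2 scale over the members, and 0.12 below over all transcripts that met the abundance conditions. In control fat, library 1 was the lowest of its group in 176 members. Its median ratio to the control mean was 0.822 over the members and 0.920 over all transcripts that met the abundance conditions. The number of members moved with single libraries, to 622 without control library 3, 397 without day 14 library 3 and 235 without day 14 library 1. Of the 622, 272 were among the 291. Across replicates the members varied more than the median transcript: the median coefficient of variation was 24.7% at day 3, 39.8% at day 14, 46.7% at day 1 and 37.5% in control fat, against 14.0%, 20.6%, 24.4% and 18.9% over all transcripts that met the abundance conditions. In control fat the median level of the members was below that of those transcripts, at 4.67 and 14.6 TPM. It was 14.4 and 17.4 TPM at day 3 and 17.6 and 16.3 TPM at day 14. The rule in part sets the levels of the members, and the part of level in their spread was not tested.

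Day 1 shows the level of the members in other rats, sampled sooner after injection than those of the days that chose the members. Their median ratio over control was 1.72 at day 1 (quartiles 1.35 and 2.16), between control and the later days. At day 1, 29 members had a ratio under 1, 165 had a ratio from 1 to under 2, and 97, or 33.3%, had a ratio of at least 2, which 3.3% of the 14560 transcripts reached. For 258 members the day 1 ratio was below that of both later days, for 25 it lay between them and for 8 it was above both. The order control, day 1, day 3, day 14 held for the group means of 162 members, and the order control, day 1, day 14, day 3 for 67. These ratios share the control libraries with the rule, which asks for low control values, so the day 1 ratio is not independent of the choice of members and was not tested. The rule also asks for high day 3 and day 14 values. A day 1 ratio below both later days, and the orders that end with those days, are thus in part built in.

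The 3 day 1 libraries differed from each other. The median ratio over the members was 1.25, 1.54 and 2.21 in day 1 libraries 1 to 3. The corresponding medians were 1.12, 1.04 and 1.20 over the 14560 transcripts that met the abundance conditions. Library 3 was the highest of the day 1 group in 186 members and library 1 the lowest in 174. Above all 3 control values lay 133 of the 291 members in day 1 library 1, 201 in library 2 and 228 in library 3. Over all transcripts that met the abundance conditions the corresponding shares were 44.1%, 31.0% and 53.7%, so the order of libraries 1 and 2 was not that of the members. The members' share was thus near that of all transcripts in library 1 and larger in libraries 2 and 3. All 3 day 1 values were above all 3 control values in 100 members, or 34.4%, where 12.9% of the 14560 transcripts did the same. The count was 162 without day 1 library 1 (21.2% of the 14560 transcripts) and 160 without control library 3 (29.1%). Without day 1 library 2 it was 122, or 41.9%, where the share of the 14560 transcripts was 32.5%, so that the members were closer to all transcripts there. In 2 members all day 1 values were below control, against 3.65% of the 14560 transcripts, and in 189 the groups overlapped. In 75 members all day 1 values were below all 6 values of day 3 and day 14, which held for 2.58% of the 14560 transcripts. The rule asks for high values in those 6 libraries, so a larger share among the members is built in.

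For comparison, 702 transcripts were raised at day 3 with a ratio under 2 at day 14, and 501 were raised at day 14 with a ratio under 2 at day 3. At day 1 their median ratios were 1.49 and 1.28, next to 1.72 for the members. The order of the 3 sets was the same in day 1 library 3 only, with 1.64 and 1.55, next to 2.21 for the members. In library 1 the medians were 1.41 and 0.918, next to 1.25 for the members, and in library 2 they were 1.24 and 1.29, next to 1.54. Day 1 values were all above control in 24.2% and 14.0% of them, next to 34.4% of the members. The 3 sets share the control libraries and were chosen by the same ratios, and the differences between them were not tested.

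Day 14 was then compared with day 3. The rule does not set these days against each other, although it requires both to be high and so limits how far a member can be lower on either day. The comparison was fitted over all transcripts with edgeR's quasi-likelihood test on the assigned reads of the 12 libraries. More than 2-fold change with an adjusted p under 0.05 (Benjamini-Hochberg) was found in 4 of 291 members, all 4 higher at day 14. Over the 28016 transcripts tested, 1.98% passed, 0.485% as higher and 1.5% as lower at day 14. The share of members that passed in either direction, 1.37%, was thus near that of all transcripts. As higher at day 14, 1.37% of members passed, next to 0.485% of all transcripts. The gap between these shares depended on the fit: the shares were 1.03% next to 1.10% with only day 3 and day 14 in the fit, 2.49% next to 2.02% with at least 10 counts in every sample, and 6.53% next to 2.91% with DESeq2. The members were chosen by their levels on both days, and nothing is read from these shares. In edgeR 0 members passed as lower (6 had an unadjusted p under 0.05 as lower at day 14, and DESeq2 called 2 of the members lower). Before adjustment, 43 members, or 14.8%, had a p under 0.05, next to 19.0% of all tested transcripts. With 1 library fewer, edgeR called 0 members without day 3 library 1, 2 or 3 or without day 14 library 2, where 25, 38, 18 and 15 members had an unadjusted p under 0.05. Over all transcripts the calls also became fewer in these fits, at 0.236%, 1.03%, 0.225% and 0.318%. The log2 differences of the 4 members stayed above 0 with any 1 of the 6 libraries left out, at 2.26 to 2.93, 1.57 to 2.72, 1.74 to 2.28 and 1.40 to 1.91. Leaving out day 14 library 1 gave 2 calls, of which 1 was lower (1.67% of all transcripts), and leaving out day 14 library 3 gave 6 (0.853%). With DESeq2 the count was 21, or 7.22%, of which 19 were higher, and 5.81% of all transcripts were called.

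The sizes of these differences ran from -1.51 to 2.70 on the log2 scale, with a median of 0.26 and quartiles of 0.00 and 0.73. The median over all tested transcripts was 0.05. The estimate was above 0 in 221 of the 291 members, and the median standard error of a single estimate was 0.47, so most single differences were within their error. In mean TPM, 198 members were higher at day 14 and 93 at day 3. The day 14 mean was at least 2 times the day 3 mean in 47 members, or 16.2%, and at most 0.5 times in 9, with 235 in between. Of the 14560 transcripts 6.62% and 7.90% did the same. The 3 day 14 values were all above the 3 day 3 values in 27 members, or 9.28%, against 13.4% of the 14560 transcripts, and all below in 7, or 2.41%, against 26.9%. In 257 members the days overlapped. Day 14 library 3 was below all 3 day 3 libraries in 146 members, and in 52.3% of the 14560 transcripts, which is near the members' share. Without it 125 members, or 43.0%, had day 14 values all above day 3, against 20.9% of the 14560 transcripts, and the median difference was 0.44 on the log2 scale. Without day 14 library 1 the median difference was 0.14. The 27 became 52, or 17.9%, without day 3 library 1 and 41, or 14.1%, without day 3 library 2, next to 17.0% and 17.5% of the 14560 transcripts, so these shares were near or below that of all transcripts. The 47 became 30, or 10.3%, without day 14 library 2, next to 6.71%.

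**Figure D2:**
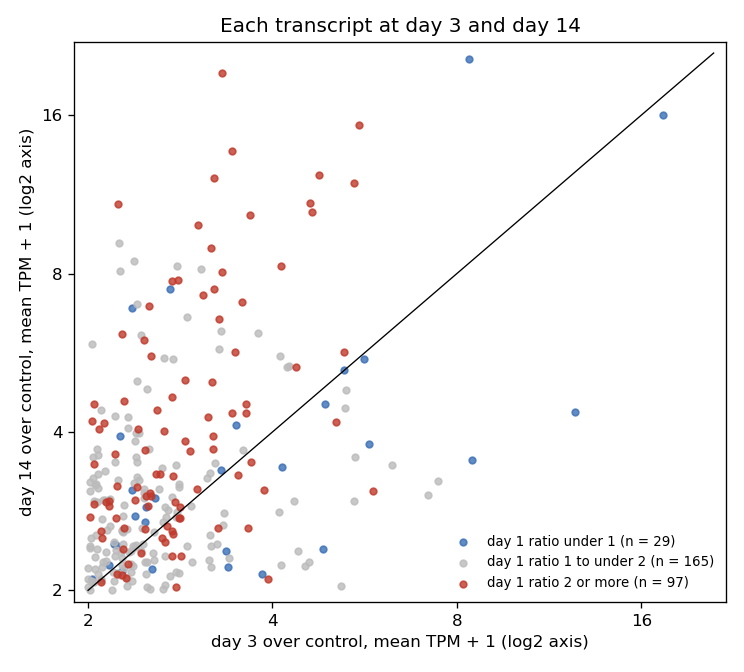
Each point is 1 of the 291 members, placed by its ratio of mean TPM + 1 over control at day 3 and at day 14, on log2 axes, and coloured by its day 1 ratio. The line marks equal ratios. Of the 97 members with a day 1 ratio of at least 2, 73 had a higher mean TPM at day 14 than at day 3. Of all 291 members, 198 did, and the difference was not tested.

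By group means, the members were split by their day 1 ratio and described by their level at day 14 next to day 3. Of the 97 members with a day 1 ratio of at least 2, 73 had a higher mean TPM at day 14 than at day 3, 29 by at least 2 times, and 0 were at 0.5 times or less. Of the 165 members with a day 1 ratio from 1 to under 2, 109 were higher at day 14, 15 by at least 2 times, and 6 were at 0.5 times or less. Of the 29 members under the control mean at day 1, 16 were higher at day 14, 3 by at least 2 times, and 3 were at 0.5 times or less. Their median ratio was 3.30 at day 3 and 3.10 at day 14, next to 2.75 and 3.63 for those with a day 1 ratio of at least 2. Across the 291 members, the log2 ratio of day 1 over control and that of day 14 over day 3 had a Pearson correlation of 0.26 and a Spearman correlation of 0.24. Across the 14560 transcripts the values were -0.34 and -0.28. These are weak relations across transcripts, which share libraries and are not independent, and the difference between the classes was not tested. The day 3 and day 14 values also chose the members, so nothing is read from the counts in these classes.

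Among the members under the control mean at day 1, the libraries of that day did not behave alike. Their median ratio was 0.578, 1.14 and 0.651 in day 1 libraries 1 to 3, so that library 2 was near control and the other libraries were lower. In the members with a day 1 ratio of at least 2, the median was 1.71, 1.83 and 3.33, with library 3 the highest. At day 14 the former members had median ratios of 5.27, 2.44 and 2.12, with library 1 the highest, and the latter had 4.09, 4.17 and 2.21, with library 3 the lowest. At day 3 the latter had 2.84, 2.88 and 2.46, so day 14 library 3 lay below all 3 day 3 libraries and the higher day 14 level of these members was that of libraries 1 and 2. The relation to day 1 also differed by library. The log2 ratio of day 1 library 3 over the other day 1 libraries had a Pearson correlation of 0.28 with that of day 14 over day 3 across the 291 members, and library 1 one of -0.19 and library 2 one of -0.10. Across the 14560 transcripts the values were -0.09, -0.48 and 0.51 for libraries 3, 1 and 2.

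The members were longer than most transcripts. Their median length was 3416 bases (quartiles 1970 and 5322), next to 2426 bases for all transcripts that met the abundance conditions, and 27.5% of them were over 5000 bases, next to 10.8%. Of the 4 equal groups by length, the longest, of 3642 bases or more, held 140 of the 291 members. Over all transcripts that met the abundance conditions, the median ratio over control went with length on each day, least so at day 1. At day 1 it went from 1.11 in the shortest group to 1.17 in the longest. At day 3 it went from 1.10 to 1.31. At day 14 it went from 0.969 to 1.21. The longest group also had lower levels in control fat, with a median of 9.60 TPM next to 24.4 TPM in the shortest. Among transcripts between 2.26 and 13.4 TPM in control fat, the 145 members had a median length of 3659 bases and the other transcripts one of 2803 bases. The part of length in the choice of members was not tested. Lengths were 2856 and 2875 bases for the transcripts raised at day 3 or at day 14 with a ratio under 2 on the other day. Among the 80 members over 5000 bases, 6 had a day 14 mean of at least 2 times the day 3 mean, and among the other 211 members 41 did. This difference was not tested. The median gap between length and effective length, which grows with the length of the sequenced fragments, was between 185 and 203 bases in the 12 libraries, highest in day 3 library 1.

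The 4 members named here by transcript identifier begin with the most abundant one. ENSRNOT00000005311.7, of 5825 bases, had 695, 519 and 406 TPM in control libraries 1 to 3, and 132, 733 and 189 TPM at day 1. At day 3 it had 8245, 3510 and 8498 TPM, and at day 14 5081, 1138 and 877 TPM. Its mean level was 12.5 times that of control at day 3 and 4.38 times at day 14, and 0.651 times at day 1, where the groups overlapped. It alone made up 24.7% of the summed level of the members at day 3, 9.02% at day 14, 7.92% in control fat and 3.02% at day 1. Day 14 library 1 lay within the range of day 3, and the estimated difference of day 14 from day 3 was -1.51 ± 0.81 on the log2 scale (SE, adjusted p = 0.345 from edgeR). Without day 14 library 1 the difference was -2.64 (adjusted p = 0.144 from edgeR, with a range of 0.144 to 0.587 over the alternatives), and the day 14 mean was 1.87 times that of control.

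ENSRNOT00000002396.6, of 2499 bases, had the largest difference in the other direction among members whose days did not overlap. It had 1.53, 6.22 and 1.29 TPM in control fat, 8.54, 9.27 and 15.6 TPM at day 1 and 7.98, 17.9 and 10.9 TPM at day 3. At day 14 it had 91.3, 118 and 19.6 TPM. All treated values were above all control values, the days 1 and 3 overlapped, and library 3 of day 14 was just above the highest day 3 value. Its mean was 25.3 times that of control at day 14 and 4.07 times at day 3, and 54.0 and 8.70 times without control library 2. The difference between day 14 and day 3 was 2.70 ± 0.75 on the log2 scale and missed the threshold (adjusted p = 0.092 from edgeR). Under the alternatives the adjusted p ranged from 0.00235 with DESeq2 to 0.306 with edgeR, and edgeR gave 0.0415 with at least 10 counts in every sample.

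ENSRNOT00000086352.2 and ENSRNOT00000026065.7 had the lowest estimates of day 14 over day 3 among members whose days did not overlap. The former, of 6289 bases, had 15.6, 13.0 and 16.3 TPM in control fat, 11.7, 31.5 and 13.0 TPM at day 1, 98.3, 49.2 and 97.6 TPM at day 3 and 47.9, 22.5 and 24.2 TPM at day 14. Across the libraries it followed the most abundant member in that library 2 was the highest at day 1 and the lowest at day 3, and library 1 was the highest at day 14. The difference was -1.35 ± 0.46 on the log2 scale (SE, adjusted p = 0.153 from edgeR). Under the alternatives the adjusted p ranged from 0.0348 with DESeq2 to 0.386 with edgeR. ENSRNOT00000026065.7, of 4183 bases, had 1.39, 1.73 and 1.80 TPM in control fat, 7.2, 1.56 and 2.18 TPM at day 1, 11.2, 11.8 and 10.3 TPM at day 3 and 7.40, 2.27 and 5.24 TPM at day 14. At day 1 library 1 was well above control, library 3 slightly above it and library 2 within its range, and the day 3 libraries were close together. The difference between day 14 and day 3 was -1.10 ± 0.55 on the log2 scale (SE, adjusted p = 0.316 from edgeR).

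**Figure D3:**
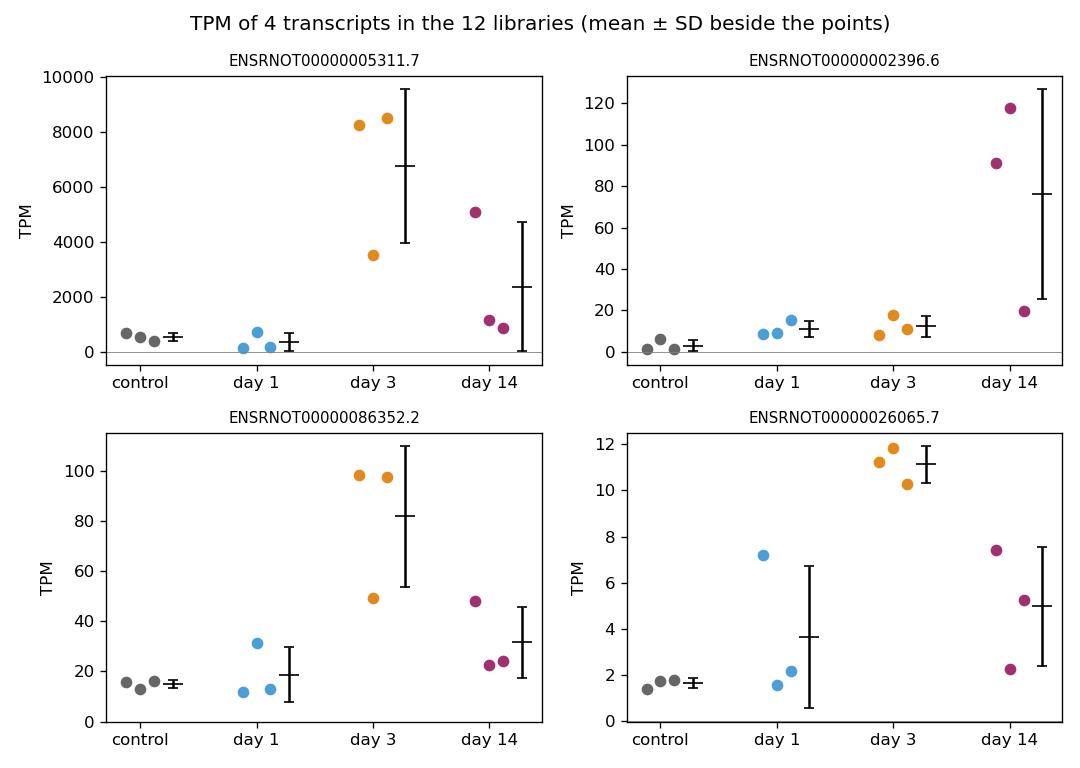
TPM of the 4 members given by identifier in the 3 libraries of each group, with the mean and SD beside the points; the axes start at or below 0 and differ between panels. The 3 day 14 values of ENSRNOT00000002396.6 spread from 19.6 to 118 TPM, and the day 3 values of ENSRNOT00000005311.7 from 3510 to 8498 TPM.

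The 4 members that passed the test between the days were chosen after their values were seen and are given here without identifier. The one with the largest difference had 1.18, 1.31 and 2.27 TPM in control fat, 4.98, 2.21 and 6.52 TPM at day 1, 3.86, 6.04 and 4.43 TPM at day 3 and 33.5, 36.4 and 11.3 TPM at day 14. It rose from day 3 to day 14 by 2.58 ± 0.49 on the log2 scale (SE, adjusted p = 0.0295 from edgeR). The most abundant of the 4 had 68.1, 70.4 and 57.2 TPM in control fat, 76.1, 131 and 148 TPM at day 1, 113, 169 and 120 TPM at day 3 and 499, 472 and 195 TPM at day 14. It rose from day 3 to day 14 by 1.61 ± 0.35 (SE, adjusted p = 0.0471 from edgeR), and its day 1 values were all above control. In each of the 4 the day 14 values were all above the day 3 values, and day 14 library 3 was the lowest of its group. The remaining members of the 4 rose by 2.34 ± 0.46 and 1.96 ± 0.38 (SE, adjusted p = 0.0312 and 0.0319 from edgeR), to means of 20.9 and 76.1 TPM at day 14.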

How the data were processed

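RNA-seq was performed by the authors on perigonadal fat, with polyA-selected libraries, and transcripts were quantified with Salmon, whose version is not given in the sources used here. GEO's processing notes list rn6, and the study's methods name a later rat assembly from Ensembl. Salmon's estimated count for each transcript was deposited by the authors without normalization. The deposited TPM values were scaled by Salmon for length and depth. Transcript lengths and effective lengths, in bases, are another pair of columns in the deposited tables.

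TPM was used to choose and describe the members, with 1 added before ratios. The estimated counts were rounded. Low counts were removed with filterByExpr, libraries were scaled by TMM, and all 12 were fitted together by robust quasi-likelihood in edgeR 4.0.16 (R 4.3.3), with p-values adjusted after Benjamini and Hochberg. DESeq2, which the study used without a version given in its methods, was run here in version 1.42.0 as an alternative beside other normalizations, filters, pseudocounts, ratios, a replicate block and each library left out. The edgeR script was tested on simulated data. Standard errors were computed from the fold change and the F statistic.

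Members and comparisons were chosen with earlier results of these data known. By rule, the 4 identifiers are the most abundant member, and, among members whose day 3 and day 14 TPM did not overlap, the largest rise and the 2 largest falls by estimate. Gene lists and cell type markers were planned for named genes and were not used. No 2 libraries of a group were within sampling noise (chi-square per degree of freedom 40.1 to 199.9 over 12 pairs). The study states biologic replicates but the labels name no animals, and p-values measure the spread between these libraries. How Salmon shared reads between transcripts of the same gene carries no error in the tables, and a change may belong to a single transcript and not to its gene.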

Additional observations from a re-analysis of the deposited data

Results flagged for a closer look

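The change from control differed between day 3 and day 14 in 4 members when day 14 was tested against day 3 in edgeR. P-values were adjusted over 28016 transcripts. The 4 were 1.37% of the members, near the 1.98% of all transcripts that passed. The count was 0 without day 3 library 1, 2 or 3 or without day 14 library 2. The differences of the 4 were 2.58, 2.34, 1.96 and 1.61 on the log2 scale. All were higher at day 14, with day 14 values above day 3 in all 3 libraries. Over all transcripts tested, 0.485% passed as higher and 1.5% as lower at day 14. The rule chose members by their levels on both days and limits how far a member can be lower on either day. Nothing is read from the direction of these calls. No explanation was tested. Groups of 3 libraries are too small for a search for single outlying samples.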

How the results depend on the processing

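The number of members, 291, was 112 with TPM + 5, 675 with a ratio of at least 1.5 and 61 with one of at least 3. It ranged from 235 to 622 over the libraries left out, and all 61 and all 112 were among the 291. The 4 members called at day 14 against day 3 were 7 of 281 with at least 10 counts in every sample (2.49%, next to 5.37% of all transcripts), 21 with DESeq2 (7.22%, next to 5.81%), and from 0 to 6 over the libraries left out (0.225% to 1.67% of all transcripts). The 4 were among the 7 and among the 21. With only day 3 and day 14 in the fit 3 members were called (1.03%, next to 2.83% of all transcripts), 1 of them among the 4, and without day 14 library 1 it was 1 of 2. The cause was not tested. With a replicate block 1 member was called (43 with an unadjusted p under 0.05, and 1.24% of all transcripts called), and the log2 differences of the 4 were 2.58, 2.25, 1.91 and 1.58. Of 18 pairs with the same replicate number, 1 had a correlation of deviations over 0.1. It was control library 3 with day 1 library 3, at 0.178. Same-number pairs between day 3 and day 14 had -0.054 to -0.007, and 6 of 12 libraries correlated best with their own number. With 3 libraries per group, these values cannot show whether a control and a treated library came from the same rat. The median log2 difference between the days, 0.26, stayed between 0.14 and 0.44 over 13 alternatives. The median day 1 ratio, 1.72, stayed between 1.40 and 1.92, and the 100 members with day 1 above control were from 103 to 162 over the libraries left out (14.4% to 32.5% of the 14560 transcripts) and 84 after TMM scaling (9.48%). The 4 called members kept their direction under 13 alternatives each, with log2 differences of 2.26 to 2.93, 1.57 to 2.72, 1.74 to 2.28 and 1.40 to 1.91. Their adjusted p ranged from 1.04e-05 (DESeq2) to 0.196 (edgeR), and under 6 to 8 of these a member was no longer called. The leave-out counts of non-overlapping and 2-fold members and the leave-out ratios of named members to control were added after seeing the data. Depth limits the 9 members with under 10 reads in a control library.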
